A study of Mus musculus with 12 samples.

Results

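Whether the knockdowns of Nr5a2 and Klf5 add up in the 8-cell mouse embryo was examined in all 12 RNA-seq libraries of the series, over 14830 genes that passed a filter on low counts out of 55401 listed. No library was left out, and no gene was chosen for the fit by its change. Many of the genes named below were chosen by their values, by rules given under the processing of the data. The sum was taken on the log2 scale. For each gene the change with Klf5 siRNA in embryos without Nr5a2 siRNA (Klf5 KD minus control) was subtracted from the change with Klf5 siRNA in embryos that also received Nr5a2 siRNA (dKD minus Nr5a2 KD). The result is called the departure. A departure of 0 means that the double knockdown (dKD) lay where the sum of both single knockdowns would put it, a positive value that it lay above, and a negative value that it lay below.

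Each library held a pool of 10 embryos, and the groups were dKD (n = 4), Klf5 KD (n = 3), Nr5a2 KD (n = 3) and control (n = 2). Zygotes from B6129F1 females of 3 to 5 weeks mated with B6CBAF1 males were injected 8 to 9 h after fertilization. Every group also received 150 ng/µl of H2B-EGFP mRNA as a marker of injection, so controls carried it too. Nr5a2 KD embryos received 5 µM of siRNA against Nr5a2, Klf5 KD embryos 10 µM against Klf5, and control embryos 15 µM of control siRNA, while the amounts combined for the dKD are not given in the sources used here. The siRNA amounts therefore differed between the groups that enter the sum. The siRNAs lower the transcripts and leave the genes intact, and each departure leans on only 2 control libraries. The labels of these libraries allow for either of 2 types of sequencer, while the study's methods name 1 for RNA-seq. The labels do not say that the pools came from separate experiments, so the p-values measure the spread between these libraries, which may be technical.

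NR5A2 is an orphan nuclear receptor that can bind its DNA motif in closed chromatin, and it activates many genes between the onset of embryonic transcription and the first lineage decision. KLF5 is a zinc finger factor of the Krueppel-like family that binds GC-rich motifs and is needed for both the inner cell mass and the trophectoderm, the outer layer that forms part of the placenta. The sum on the log scale takes each factor to multiply the output of a gene by its own amount. This is an assumption, since independent contributions can also add up on the linear scale. A departure on the log scale therefore does not by itself show that the factors depend on each other. For a gene that both siRNAs lower, a positive departure means that the second siRNA took away less than it did alone.

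Depth ranged from 6676683 to 12560926 counts on genes, and 9 of 9 genes that mark the 8-cell embryo were found in all 12 libraries. Markers of cumulus cells, which surround the oocyte, summed to 0.226 to 3.15 CPM (counts per 1e6 counts) over 10 genes, and Ptx3, Inhba and Lhcgr were at 0 in every library. The share of counts on mitochondrially encoded genes was 4.41 to 11.8% in Klf5 KD, 6.17 to 12.8% in dKD and 6.18 to 12.5% in Nr5a2 KD, against 12.9 and 13.2% in control. Both control libraries were thus above all Klf5 KD libraries, and this share is set beside several results. Counts on 4 Y-linked genes summed to 18.9 to 83.5 CPM in Klf5 KD, 63.7 to 79.7 CPM in Nr5a2 KD and 84.5 to 128 CPM in dKD, with 31.4 and 43.2 CPM in control.

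Each siRNA lowered its own target. Nr5a2 (chr1) stood at 225 and 210.3 CPM in control, 32.9, 38.9 and 24.1 in Nr5a2 KD, 117, 256 and 203 in Klf5 KD, and 28.6, 31.2, 33.9 and 25.3 in dKD. All libraries with Nr5a2 siRNA lay below all libraries without it, and the departure was 0.08 ± 0.39 (log2, ± standard error, 95% interval -0.74 to 0.90). Klf5 (chr14) stood at 444 and 467 CPM in control, 72.9, 117 and 144 in Klf5 KD, 151, 159 and 109 in Nr5a2 KD, and 82.2, 59.98, 42.3 and 40.03 in dKD. Klf5 was lowered by either siRNA, with log2 changes from control of -2.03 in Klf5 KD and -1.71 in Nr5a2 KD, both called. In embryos that already had Nr5a2 siRNA, the change of Klf5 with Klf5 siRNA was -1.31, not called, although all dKD libraries lay below all Nr5a2 KD libraries. The sum gave 34.1 CPM for the dKD and 56.1 ± 19.5 CPM (SD, n = 4) was measured, a departure of 0.72 ± 0.42 (interval -0.18 to 1.61). That departure was 0.47 without dKD replicate 1, 0.49 without Klf5 KD replicate 1 and 0.16 when the mitochondrial share was a covariate. The comparison of dKD with Nr5a2 KD thus started from a lower Klf5 level than that of Klf5 KD with control. In pools of whole embryos, fewer cells that express a gene and less RNA per cell cannot be told apart.

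Across the transcriptome no gene passed the threshold for a departure by edgeR. With a false discovery rate of 0.05 and a minimum of 2-fold, 0 of 14830 genes were called above the sum and 0 below (0% in each direction), and the smallest adjusted p was 0.480. At an unadjusted p under 0.05, 428 genes lay above the sum (2.89%) and 287 below (1.94%), in all 4.82% of the genes. DESeq2 called 3 genes above the sum and 0 below (0.0202% of 14830), and edgeR without the filter on low counts called 12 above and 3 below (0.0492% of 30493). The plot of departures against expression level shows the spread narrowing as genes become more abundant.

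**Figure D1:**
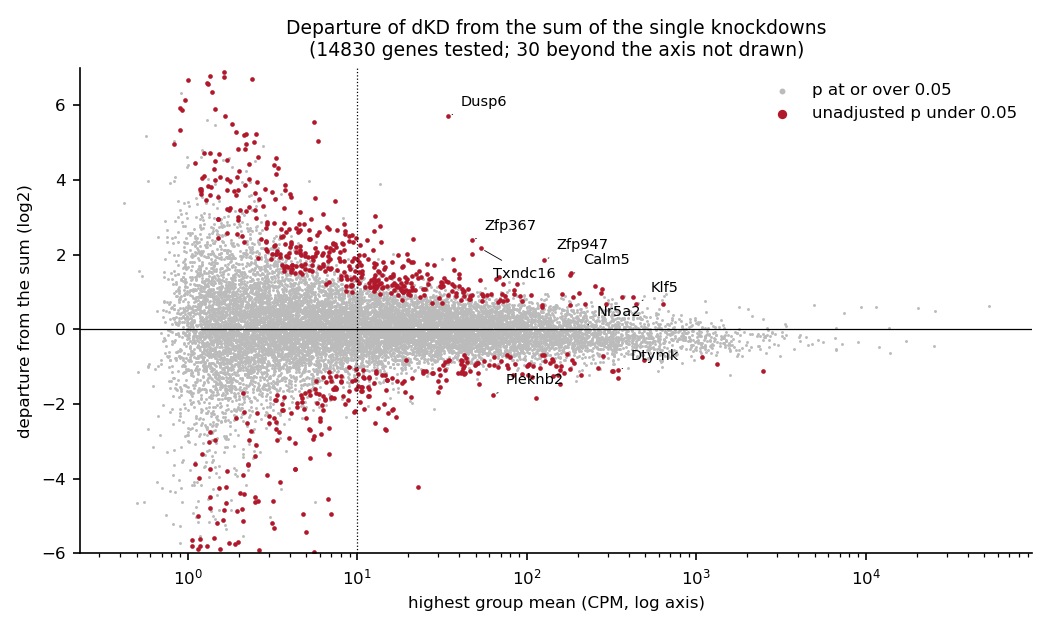
Departure from the sum (log2, y axis) of each of the 14830 genes tested against its highest group mean (CPM, log axis). Red points have an unadjusted p under 0.05, the dotted line marks 10 CPM, and 30 genes beyond the y axis are not drawn. No point passed the adjusted threshold by edgeR with the filter on low counts, and the spread is widest among scarce genes.

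The libraries measured a departure too loosely to show that the knockdowns add up for most genes. The median standard error was 0.602 over all genes and 0.420 over the 7351 genes with a mean of at least 10 CPM in a group. Of those 7351 genes, 2007 (27.3%) had a 95% interval that lay wholly within a 2-fold departure in either direction. For the others a departure of 2-fold or more was not excluded by the interval at this depth and number of libraries. Among the 7351 genes, 185 lay above the sum and 129 below at an unadjusted p under 0.05 (4.27%), and the middle of the distribution ran from -0.33 to 0.29 (quartiles).

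The Nr5a2 response was similar whether or not Klf5 siRNA was present. This can be read from comparisons that share no library, Nr5a2 KD minus control on one side and dKD minus Klf5 KD on the other. Nr5a2 siRNA alone lowered 529 genes (3.57%) and raised 344 (2.32%). In the presence of Klf5 siRNA it lowered 783 (5.28%) and raised 802 (5.41%), in a comparison of 4 libraries with 3 in place of 3 with 2. Of the 529 genes lowered without Klf5 siRNA, 526 (99.4%) changed in the same direction with it and 384 (72.6%) were called again, and those 384 were 49.0% of the 783. The median change of the 529 genes was -1.77 without and -1.60 with Klf5 siRNA. Of the 344 raised genes, 338 (98.3%) kept their direction and 225 (65.4%) were called again, which was 28.1% of the 802, with medians of 2.13 and 1.57. Genes chosen for a large change in 1 comparison tend to show a smaller one elsewhere, so the medians do not show a weaker response. Over the 7351 more abundant genes the changes correlated at 0.79 by Pearson and 0.69 by Spearman, where genes are not independent replicates and share the normalisation.

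The Klf5 response, read in the same way, was small on both sides. Klf5 siRNA alone lowered 6 genes (0.0405%) and raised 0 (0%), and in embryos with Nr5a2 siRNA it lowered 0 and raised 0 (0%). Over the 7351 genes the changes correlated at 0.21 by Pearson and 0.18 by Spearman. Their standard deviation over genes was 0.497 for Klf5 KD minus control, with 3 and 2 libraries, and 0.296 for dKD minus Nr5a2 KD, with 4 and 3 libraries. The 6 lowered genes were lower in the presence of Nr5a2 siRNA too, none of them past the threshold, with a median change of -2.47 without and -0.76 with it.

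**Figure D2:**
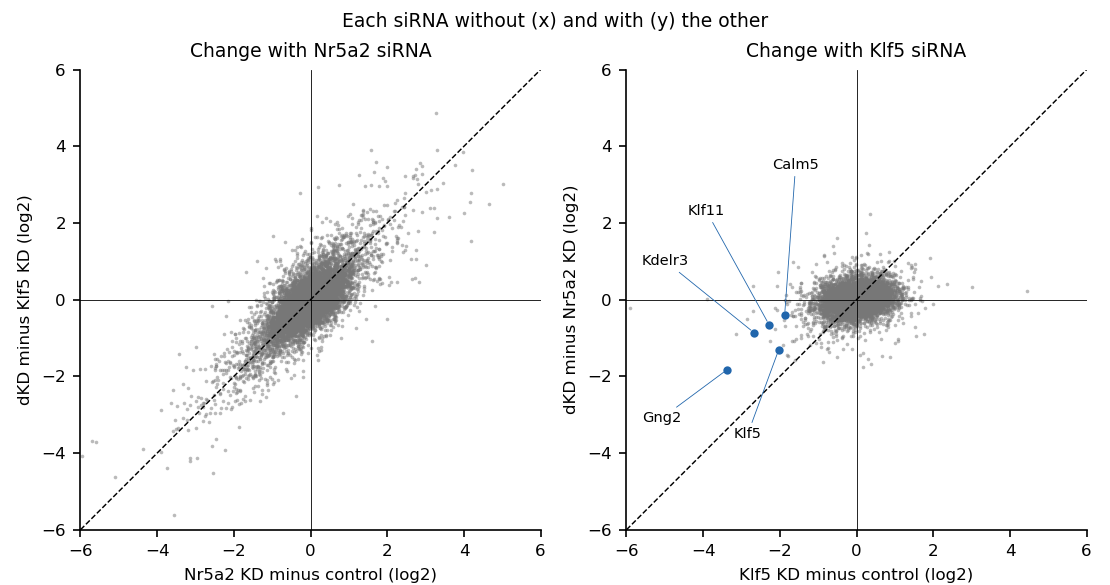
Change with Nr5a2 siRNA (left) and Klf5 siRNA (right) in the absence (x axis) and presence (y axis) of the other siRNA, log2, for 7351 genes of at least 10 CPM, of which 3 lie beyond an axis. The dashed line is where genes that add up would lie. The left cloud follows it (Pearson 0.79). The right cloud follows it weakly (Pearson 0.21) and is wider along x (SD 0.497) than along y (SD 0.296). The marked genes are lowered by Klf5 siRNA alone.

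Those 6 genes were Dusp6, Calm5, Kdelr3, Klf11, Gng2 and Klf5. They were chosen by Klf5 KD minus control, which enters the departure with the opposite sign, so their positive departures follow in part from the choice and are given as values. Dusp6 (chr10:99263231-99267489, GRCm38), a phosphatase that switches off ERK and is itself induced by ERK signaling, stood at 3.94 and 2.55 CPM in control. It was at 33.6, 42.8 and 26.6 CPM in Nr5a2 KD, at 0, 0 and 0.147 in Klf5 KD, and at 15.2, 52.5, 17.1 and 34.6 in dKD. The libraries of dKD and Nr5a2 KD overlapped and were all above the control libraries, which were above all Klf5 KD libraries. A single count was seen over the 3 Klf5 KD libraries against 45 over the 2 control libraries, a level of 1.18% of control with an interval of 0.0293 to 6.94% (exact binomial, 95%, counting error only). With that 1 count the log scale sum put the dKD at 0.518 CPM, a value that carries the same counting error, and the measured mean was 29.8 ± 17.4 CPM (SD, n = 4). The fitted departure was 5.71 ± 1.08 by edgeR (adjusted p 0.48), and its size is poorly determined because it rests on 1 count. DESeq2 gave it an adjusted p of 0.0381, and over all alternatives the adjusted p ran from 2.327e-07 without the filter on low counts to 1.00. Adding the changes in CPM instead put the dKD at 31.2 CPM, slightly above the measured mean.

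Calm5, a gene of the calmodulin family of calcium sensors, repeated this pattern with enough counts in every group. It stood at 38.3 and 51.5 CPM in control, 9.8, 13.1 and 13.9 in Klf5 KD, 207, 202 and 133 in Nr5a2 KD, and 103, 179.5, 126 and 134 in dKD. All Klf5 KD libraries were below both control libraries, while dKD and Nr5a2 KD overlapped. The log scale sum was 49.4 CPM and the measured dKD mean 136 ± 31.9 CPM, a departure of 1.47 ± 0.37 (adjusted p 0.889), while the linear sum was 148 CPM. For Dusp6 and Calm5, both raised by Nr5a2 siRNA, the direction of the departure depends on the scale on which the knockdowns are added.

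Gng2, a G protein gamma subunit, stood at 8.03 and 9.26 CPM in control, 21.2, 33.5 and 14.9 in Nr5a2 KD, 0.72, 0.236 and 1.61 in Klf5 KD and 5.18, 9.08, 8.15 and 3.78 in dKD. All 4 dKD libraries lay below all Nr5a2 KD libraries, and the log2 change with Klf5 siRNA was -3.38 without Nr5a2 siRNA, called, and -1.83 with it, not called. Its departure was 1.55 ± 0.70 on the log scale, and on the linear scale the dKD mean of 6.55 CPM was below the sum of 15.4 CPM. Kdelr3, a receptor that returns proteins to the endoplasmic reticulum, stood at 15.2 and 27.5 CPM in control, 1.98, 3.07 and 5.14 in Klf5 KD, 7.55, 10.2 and 9.42 in Nr5a2 KD and 5.82, 5.11, 3.78 and 5.2 in dKD. Every group with an siRNA against a factor was below the control, dKD overlapped Klf5 KD, and the departure was 1.81 ± 0.53.

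Among genes of at least 10 CPM with an official name, predicted, clone-named and Y-linked genes aside, the 10 with the smallest p above the sum were Dusp6, Zfp947, Zfp367, Txndc16, Calm5, Diaph2, Prdm14, Zfp980, G2e3 and Eif2ak4. None passed the adjusted threshold by edgeR with the filter on low counts, and beside Dusp6 their adjusted p lay between 0.853 and 0.95. They thus describe the edge of the distribution. Without that filter edgeR called Dusp6, Zfp947, Zfp367 and Txndc16. In all 10, every Klf5 KD library lay below every control library, a comparison that is itself a part of the departure. Zfp947 (chr17:22144359-22166190), a zinc finger gene, stood at 65.5 and 121 CPM in control, 88.4, 100.2 and 93.2 in Nr5a2 KD, 23.7, 28.5 and 51.8 in Klf5 KD, and 106, 151, 127 and 123 in dKD. All 4 dKD libraries were above all Nr5a2 KD libraries, opposite to the order of Klf5 KD and control, and the departure was 1.87 ± 0.42. Zfp980, another zinc finger gene, stood at 55.3 and 42.7 CPM in control, 53.2, 61.4 and 58.3 in Nr5a2 KD, 17.7, 30.4 and 31 in Klf5 KD, and 81.8, 68.3, 66.6 and 71.2 in dKD. It followed the same order, with a departure of 1.22 ± 0.34. Zinc finger genes of this kind have near-identical copies, and reads that match several copies leave their values uncertain.

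Zfp367 (chr13:64133018-64153202), a zinc finger transcription factor, stood at 44.6 and 49.9 CPM in control, 16.7, 22.3 and 15.1 in Nr5a2 KD, 7.65, 20.2 and 21.4 in Klf5 KD and 22.5, 53.7, 20.8 and 33.8 in dKD. Each siRNA alone left every library below the control. Of the dKD libraries, replicate 2 lay above both controls, and replicates 1, 3 and 4 lay below both. Its dKD mean was 32.7 ± 15.2 CPM (SD, n = 4) against 6.27 CPM for the sum, a departure of 2.39 ± 0.56. Txndc16, a thioredoxin domain gene, stood at 54.9 and 52.3 CPM in control, 44.5, 32 and 25.6 in Nr5a2 KD, 13.6, 10.8 and 23.8 in Klf5 KD, and 63.5, 61, 35.9 and 22.1 in dKD. Its dKD libraries overlapped those of all other groups, and the departure was 2.17 ± 0.54. Replicates 1 and 2 of the dKD, which held the higher Txndc16 levels, had mitochondrial shares of 12.8 and 12.6%, against 6.75 and 6.17% in replicates 3 and 4. With that share as a covariate the departure of Txndc16 was 1.47.

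Prdm14, a regulator that secures pluripotency and the germline, stood at 18.9 and 13.2 CPM in control, 13.8, 10.2 and 17 in Nr5a2 KD, 3.87, 3.42 and 4.11 in Klf5 KD, and 12.3, 11.2, 6.02 and 16.1 in dKD. The 3 Klf5 KD libraries were the lowest 3 of the 12, and the departure was 1.81 ± 0.51 (adjusted p 0.896). Diaph2, a formin that builds actin filaments, stood at 26.2 and 25.4 CPM in control, 15.3, 12.2 and 17.8 in Klf5 KD, 3.07, 4 and 2.76 in Nr5a2 KD and 8.47, 7.8, 3.78 and 5.67 in dKD, with a departure of 1.75 ± 0.47. All libraries with Nr5a2 siRNA were below all those without it. G2e3, a ubiquitin ligase, had means of 14 ± 1.52 CPM in control, 4.42 ± 2.81 in Klf5 KD, 15.7 ± 4.69 in Nr5a2 KD and 19.7 ± 4.98 in dKD, and a departure of 2.02 ± 0.57. Eif2ak4, the kinase GCN2 that senses amino acid shortage, had means of 3.87 ± 0.534 CPM in control, 1.06 ± 0.199 in Klf5 KD, 9.32 ± 3.41 in Nr5a2 KD and 10.2 ± 3.24 in dKD, and a departure of 1.98 ± 0.58. In both genes Klf5 KD was the lowest group and dKD the highest by its mean.

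By the same rule the 10 genes at the other edge were Cldn6, Dtymk, Plekhb2, Mettl26, Ifitm3, Alg8, Nqo2, Rtbdn, Cln8 and Lrp2, with departures from -2.69 to -1.09 and adjusted p of at least 0.889. In 9 of the 10 every Klf5 KD library lay above every control library, again a comparison that is itself a part of the departure. The exception was Nqo2, where these groups overlapped. Dtymk (chr1:93792576-93801934), the kinase that makes thymidine diphosphate for DNA synthesis, stood at 173 and 194 CPM in control, 322, 263 and 241 in Nr5a2 KD, 414, 308 and 315 in Klf5 KD, and 212, 244, 272 and 245 in dKD. Every library with either siRNA was above the control, the dKD overlapped Nr5a2 KD, and the departure was -1.09 ± 0.30, with the smallest standard error of the 20 genes at both edges. Plekhb2 (chr1:34849976-34879580), a membrane trafficking gene, stood at 2.42 and 5.37 CPM in control, 59.1, 43.4 and 86.3 in Nr5a2 KD, 9.54, 16.1 and 12.9 in Klf5 KD, and 48.9, 52, 71.2 and 71.7 in dKD. The dKD overlapped Nr5a2 KD, and the departure was -1.75 ± 0.49. The log scale sum was 207 CPM and the linear sum 71.9 CPM, against a measured mean of 61 CPM.

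Cldn6, a claudin of tight junctions, stood at 3.03 and 3.355 CPM in control, 14.3, 7.99 and 15.7 in Nr5a2 KD, 14.8, 5.32 and 7.93 in Klf5 KD, and 10.5, 4.25, 5.55 and 6.02 in dKD. All libraries with either siRNA were above the control, the dKD overlapped both single knockdowns, and the departure was -2.50 ± 0.64. Mettl26, a gene named for its likeness to methyltransferases, stood at 17.4 and 12.9 CPM in control, 12.4, 12.8 and 14.4 in Nr5a2 KD, 44.3, 27.1 and 18.9 in Klf5 KD and 6.7, 7.66, 7.32 and 11.4 in dKD, with a departure of -1.67 ± 0.47. Nqo2, a quinone reductase, stood at 10.9 and 7.25 CPM in control, 13.2, 7.3 and 11.3 in Nr5a2 KD, 12.2, 10.2 and 7.93 in Klf5 KD and 3.79, 4.54, 3.07 and 4.72 in dKD, with a departure of -1.56 ± 0.49 (adjusted p 0.95). In Mettl26 and Nqo2, and in no other of the 10, all 4 dKD libraries were below the other 8, and in Nqo2 the other 3 groups overlapped each other. The remaining genes were Ifitm3, an interferon-inducible membrane protein (-2.10 ± 0.60), Alg8, a glucosyltransferase of protein glycosylation (-2.69 ± 0.85), Rtbdn, a riboflavin-binding protein (-2.66 ± 0.84), Cln8, a transporter between endoplasmic reticulum and Golgi (-1.36 ± 0.43), and Lrp2, the endocytic receptor megalin (-1.93 ± 0.62).

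**Figure D3:**
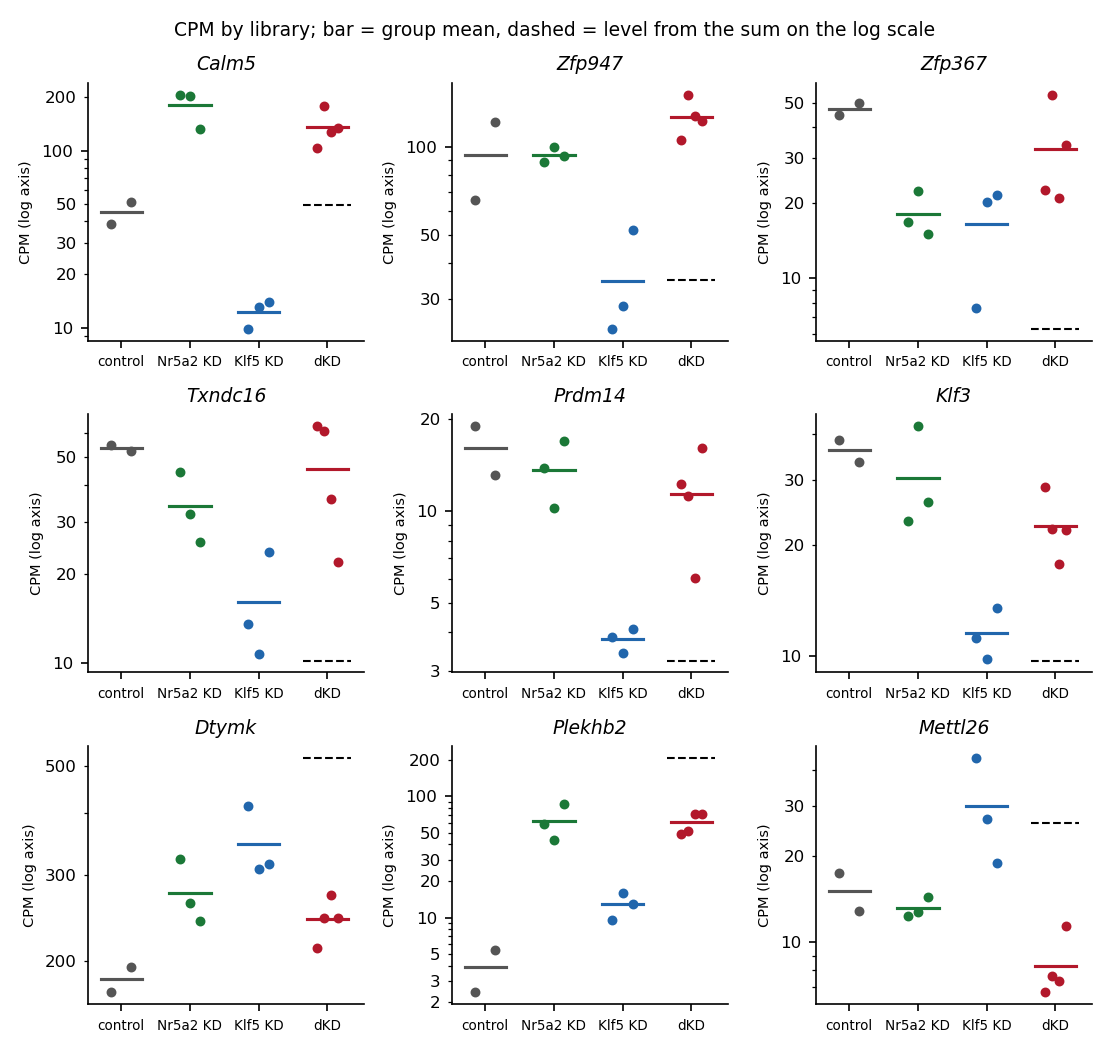
CPM (log axis) of 9 genes in each library of the 4 groups, with a bar at each group mean and a dashed line at the level that the sum on the log scale gives for the dKD. In Dtymk, Plekhb2 and Mettl26 the dKD mean lies below the dashed line, and in the other 6 above it. Every Klf5 KD library lies below all other libraries in Calm5, Zfp947, Prdm14 and Klf3.

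The wider set of genes at an unadjusted p under 0.05 had the same shape. Of the 185 genes of at least 10 CPM above the sum, 183 were lower in Klf5 KD than in control, and for 162 the change with Klf5 siRNA was larger without than with Nr5a2 siRNA. Their median change with Klf5 siRNA was -0.88 without and 0.28 with Nr5a2 siRNA. Of the 129 below the sum, 129 were higher in Klf5 KD than in control, with median changes of 0.84 and -0.26. These counts describe genes that the contrast itself selected. Of all 715 genes at that threshold, 701 kept the sign of the departure when the changes were added in CPM. This count is no test of a positive sign where the linear sum is below 0 CPM, since any measured level lies above it. Over all genes tested the linear sum was below 0 CPM for 752.

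Of the Krueppel-like factors, 4 of 13 tested lay above the sum and 0 below at the unadjusted threshold, against 2.89 and 1.94% of all genes. The 4 became 2 without control replicate 2, without dKD replicate 1, with voom quality weights and when the mitochondrial share was a covariate, and 0 with library sizes from the ERCC spike-in counts, which put 98 of all genes above and 850 below. The median departure was 0.72, which is the value of Klf5, the siRNA target, itself a member. With Klf5 counted, 12 of the 13 were positive, and 10 were lower in Klf5 KD than in control. These factors share a DNA-binding domain of zinc fingers and bind similar GC-rich motifs. Klf3, a repressor of the family, stood at 38.5 and 33.5 CPM in control, 23.1, 41.9 and 26.1 in Nr5a2 KD, 11.2, 9.8 and 13.5 in Klf5 KD, and 28.6, 22, 17.7 and 21.9 in dKD. All Klf5 KD libraries were below every other library, and the departure was 1.22 ± 0.40. Klf11, a repressor linked to TGF-beta signaling, stood at 14.1 and 14.6 CPM in control, 8.96, 11.8 and 15.3 in Nr5a2 KD, 3.42, 3.42 and 1.91 in Klf5 KD, and 5.82, 10.6, 7.56 and 6.5 in dKD. Its Klf5 KD libraries were again below all others, with a departure of 1.62 ± 0.49. Klf10, an early response gene to TGF-beta, had a departure of 1.71 ± 0.73 and Klf7, at or under 2.82 CPM in every library, one of 4.03 ± 1.66. Klf4, a pluripotency factor, stood at 46.7 and 66.2 CPM in control, 20.4, 11.8 and 5.9 in Nr5a2 KD, 58.4, 106 and 89.98 in Klf5 KD, and 22.6, 15.3, 14.1 and 13 in dKD. Its Klf5 KD libraries overlapped the control, all libraries with Nr5a2 siRNA were lower than both, and the departure was -0.23 ± 0.53. With the mitochondrial share as a covariate the median of the family, relative to all genes, was 0.22, and with 1 library left out it ran from 0.50 without dKD replicate 1 to 0.92 without dKD replicate 4.

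The sequences upstream of 3 genes are shown as examples with different responses to Klf5 siRNA, Klf3 and Dusp6 lower in every Klf5 KD library and Klf4 not. They were taken from RefSeq on GRCm38.p6, from the 250 bases before the start site, without bases inside the gene as the count files place it. Capitals mark matches, on either strand, to CCNCNCCC, a short form of the KLF motif, or to CAAGGTCA, a form of the NR5A motif. Matches may overlap each other. The NR5A2 motif that the paper marks in its nucleosome DNA differs from CAAGGTCA, so this search does not count it. Klf3 is shown for chr5:64803271-64803387 on the plus strand, Klf4 for chr4:55532476-55532725 on the minus strand and Dusp6 for chr10:99262981-99263230 on the plus strand.
Klf3: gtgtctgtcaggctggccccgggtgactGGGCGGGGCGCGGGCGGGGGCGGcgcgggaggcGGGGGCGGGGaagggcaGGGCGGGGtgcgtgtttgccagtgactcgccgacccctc
Klf4: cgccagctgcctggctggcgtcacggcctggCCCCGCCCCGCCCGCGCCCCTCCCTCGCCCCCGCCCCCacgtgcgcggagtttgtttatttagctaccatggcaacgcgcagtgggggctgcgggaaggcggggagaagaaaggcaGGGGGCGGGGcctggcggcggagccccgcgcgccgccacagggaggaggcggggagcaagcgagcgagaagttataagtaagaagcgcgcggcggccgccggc
Dusp6: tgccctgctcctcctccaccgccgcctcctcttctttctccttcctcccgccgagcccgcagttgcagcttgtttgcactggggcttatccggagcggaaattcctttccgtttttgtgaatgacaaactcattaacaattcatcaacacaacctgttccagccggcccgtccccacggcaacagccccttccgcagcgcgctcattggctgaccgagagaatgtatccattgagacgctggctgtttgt
Klf3 held 7 KLF matches in the 117 bases shown and 10 in the full 250, Klf4 held 9, and Dusp6 held 0. Of 32851 promoters of the same length in the table, 45.9% held at least 1 KLF match, with a median of 2 among those. A match to CAAGGTCA was held by 1.33% of these promoters. Of the 93 genes followed one by one, 60 had a single promoter in the table. Of these 60, 43 held KLF letters and 0 held CAAGGTCA, and other forms of the NR5A motif were not searched. These 60 were chosen by departure or list, Krueppel-like factors among them, while the 32851 promoters were not limited to tested genes. The 43 of 60 is therefore not comparable with the 45.9%. A match is a description of letters and not a binding site.

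The genes that the study lists as lower only in the double knockdown had 0 of 7 members below the sum and 1 above at an unadjusted p under 0.05. Their median departure was 0.11, and 1.94% of all genes lay below and 2.89% above. With 1 library left out the median, relative to all genes, ran from -0.09 without Nr5a2 KD replicate 3 to 0.27 without dKD replicate 4, and 0 to 1 members lay above. It was -0.26, with 2 members above, when the mitochondrial share was a covariate, and -0.09 with voom quality weights. This list was chosen by the study on these samples. Its members are Prkcd, a kinase, Smad7, an inhibitor of TGF-beta signaling, Ryk, a Wnt receptor, Rad51c and Aunip, which act in DNA repair, Rnaseh2c, a subunit of the enzyme that removes ribonucleotides from DNA, and Pold1, the catalytic subunit of DNA polymerase delta. Rad51c stood at 11.1 and 12.3 CPM in control, 4.6, 2.75 and 1.38 in Nr5a2 KD, 9.62, 12.9 and 10.4 in Klf5 KD, and 3.79, 0.425, 1.89 and 2.83 in dKD. The dKD overlapped Nr5a2 KD, the sum was 2.73 CPM against a measured 2.24 ± 1.44 CPM, and the departure was -0.28 ± 0.75 (interval -1.86 to 1.30). Rnaseh2c stood at 29.7 and 36.5 CPM in control, 22.6, 16.4 and 12.7 in Nr5a2 KD, 29, 25.2 and 29.6 in Klf5 KD, and 19.98, 13.6, 13.5 and 11.1 in dKD. Its sum was 14.5 CPM against a measured 14.5 ± 3.8 CPM, with an interval of the departure from -0.78 to 0.78, so that a departure of 2-fold or more in either direction lay outside the interval. Ryk had the most negative value of the list, -0.42 ± 0.54, and all 4 dKD libraries, at 4.93 to 10.8 CPM, were below the 3 Nr5a2 KD libraries, at 10.9 to 11.2 CPM.

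Aunip was the member above the sum. It stood at 20.9 and 11 CPM in control, 5.07, 5.65 and 9.55 in Nr5a2 KD, 6.03, 7.32 and 7.93 in Klf5 KD, and 4.68, 5.67, 8.27 and 8.5 in dKD. Its departure was 1.18 ± 0.53 (adjusted p 0.95) and ran from 0.64 to 1.575 with 1 library left out. Every library with either siRNA was below the control, and the dKD overlapped both single knockdowns. Prkcd stood at 42.6 and 40.5 CPM in control, 16.3, 21.2 and 25.4 in Nr5a2 KD, 24.9, 34 and 17.6 in Klf5 KD and 13.3, 20.3, 17.5 and 30.4 in dKD, the same order with a departure of 0.66 ± 0.45. The departures of Pold1, 0.11 ± 0.44, and Smad7, 0.39 ± 0.92, were smaller than their standard errors.

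A further list held both targets, Klf4, Tdgf1, Tead4, Lats2, Prkcz and 3 GATA factors, and 1 of its 10 genes lay above the sum and 0 below. When the mitochondrial share was a covariate 1 lay above and 2 below. Lats2, a kinase of the Hippo pathway that restrains the growth regulator YAP, stood at 40.3 and 39.5 CPM in control, 8.73, 9.64 and 6.53 in Nr5a2 KD, 15.5, 24.8 and 36.1 in Klf5 KD, and 11.4, 21.7, 13.5 and 8.5 in dKD. All libraries with either siRNA were below the control, the dKD overlapped Nr5a2 KD, and the departure was 1.38 ± 0.51 (adjusted p 0.95). Tead4, the factor through which YAP acts on trophectoderm genes, stood at 101 and 95.7 CPM in control, 38.9, 67 and 37.9 in Nr5a2 KD, 66.1, 89.8 and 92 in Klf5 KD and 51, 63.8, 60.5 and 48.8 in dKD, with a departure of 0.47 ± 0.36. Its libraries were all below the control in each knockdown. Prkcz, a polarity kinase, had a departure of -0.11 ± 0.48, and Tdgf1, a coreceptor of Nodal, one of 0.47 ± 0.85. The GATA factors lay at -0.14 ± 0.46 (Gata1), 0.80 ± 0.55 (Gata4) and -0.43 ± 0.32 (Gata6). The plot of intervals shows that 15 of the 17 genes of both lists had an interval that included 0.

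**Figure D4:**
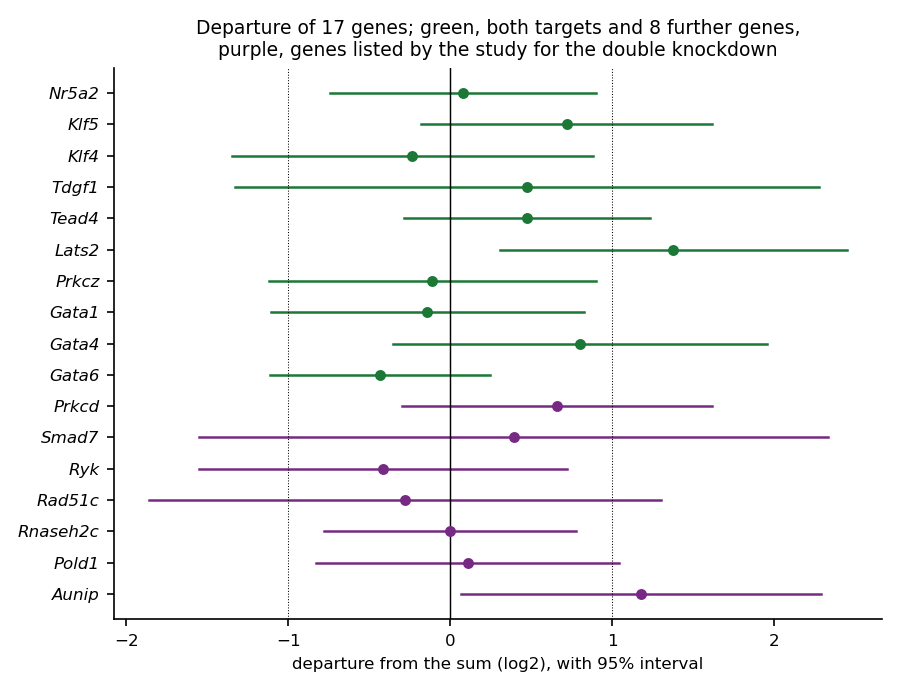
Departure from the sum (log2) with its 95% interval for 17 genes, in green the 10 genes of the further list and in purple those the study lists for the double knockdown. The dotted lines mark a 2-fold departure. The intervals of Lats2 and Aunip lie above 0 and the other 15 include 0.

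Lists of other pathways were described by their counts beside those of all genes, of which 2.89% lay above and 1.94% below the sum at an unadjusted p under 0.05. In Hippo signaling and cell polarity, 3 of 28 genes lay above the sum and 0 below, with a median departure of 0.31. With 1 library left out 2 to 4 lay above, and the median relative to all genes was 0.11 without Klf5 KD replicate 1. The 3 genes were Lats2, Prkci, an atypical protein kinase C of the apical domain (1.71 ± 0.53), and Amotl2, a junction protein that holds YAP in the cytoplasm (1.03 ± 0.45). Prkci stood at 5.3 and 10.6 CPM in control, 6.49, 7.44 and 10.4 in Nr5a2 KD, 1.98, 3.54 and 2.5 in Klf5 KD, and 9.99, 9.79, 7.79 and 7.91 in dKD, so that all Klf5 KD libraries were below all others. In Wnt and TGF-beta signaling 4 of 34 genes lay above the sum and 0 below, with a median of 0.35. The count fell to 1 of 36 without control replicate 1 and to 2 without any of control replicate 2, Nr5a2 KD replicates 1 and 3, Klf5 KD replicate 1 and dKD replicate 1, and the median relative to all genes was 0.14 without control replicate 2 and 0.16 without Klf5 KD replicate 1. The 4 genes were Tcf7l2, a nuclear effector of Wnt (1.67 ± 0.65), Apc, which promotes the breakdown of beta-catenin (1.04 ± 0.47), Dvl2, which relays the signal from the receptor (1.55 ± 0.71), and Gsc, a homeobox target of Nodal (1.58 ± 0.48). Gsc stood at 3.94 and 3.76 CPM in control, 39.1, 40.5 and 32.4 in Nr5a2 KD, 0.72, 0.945 and 0.734 in Klf5 KD, and 28.6, 27.9, 14.1 and 23.9 in dKD. No group of Gsc overlapped another, and on the linear scale its dKD mean of 23.6 CPM was below the sum of 34.3 CPM. With the mitochondrial share as a covariate the median of the Wnt and TGF-beta list, relative to all genes, was 0.13, and that of the Hippo list 0.00044.

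Among inner cell mass and pluripotency genes 2 of 18 lay above the sum, Prdm14 and Gsc, and 0 below. These counts were 1 and 0 with voom quality weights, 2 and 2 when the mitochondrial share was a covariate and 0 and 2 with the ERCC counts. The list had a median of -0.18 that was -0.38, relative to all genes, without dKD replicate 1. Among trophectoderm genes 0 of 12 lay above and 2 below, Krt18, a keratin of the outer layer (-2.13 ± 0.92), and Atp1b1, a subunit of the sodium pump that fills the blastocoel (-1 ± 0.46). The 2 became 0 without control replicate 1, without Nr5a2 KD replicate 3 and with the replicate block. Krt18 stood at 0.455 and 2.95 CPM in control, 11.2, 7.16 and 14.6 in Nr5a2 KD, 2.25, 1.3 and 4.84 in Klf5 KD, and 5.94, 1.42, 5.2 and 3.31 in dKD, and all dKD libraries were below all Nr5a2 KD libraries. The departure of Krt18 ran from -4.01 to -1.36 with 1 library left out. Krt18 was also the 1 of 9 genes of the 8-cell marker list past the threshold, and 0 with the replicate block. Among FGF and ERK genes Dusp6 alone of 23 passed the unadjusted threshold. The oocyte and maternal list had Zp2, a protein of the zona pellucida (2.33 ± 0.91), above and Khdc3, a subunit of the subcortical maternal complex (-1.24 ± 0.47), below, of 20. Khdc3 stood at 91.1 and 106 CPM in control, 23.9, 13.8 and 11.8 in Nr5a2 KD, 154, 152 and 122 in Klf5 KD and 17.2, 8.51, 7.91 and 6.97 in dKD. All its Klf5 KD libraries were above the control while the dKD overlapped Nr5a2 KD.

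In recombination and Fanconi repair 1 of 34 genes, Aunip, lay above and 0 below, with a median of -0.09 that was 0.0089, relative to all genes, without Nr5a2 KD replicate 3. In DNA replication 0 of 46 lay above and 1 below, Mcm6, a subunit of the replicative helicase (-0.95 ± 0.33), with a median of -0.20. Relative to all genes that median was 0.06 when the mitochondrial share was a covariate and -0.07 without Klf5 KD replicate 1. Mcm6 stood at 56.8 and 57.7 CPM in control, 98.3, 74.2 and 107 in Nr5a2 KD, 105, 115 and 83.2 in Klf5 KD and 83.1, 69.6, 83 and 106 in dKD, and every library with either siRNA was above the control. Of 24 genes of the cell cycle 0 lay above and 1 below, Ccnd1, cyclin D1 (-1.66 ± 0.76). The p53 targets (16 genes), 2-cell stage genes (15), glycolysis (22), heat shock and unfolded protein response (14), interferon response (7), small RNA machinery (12), GATA factors (4), Y-linked genes (4) and the 1 cumulus marker tested had 0 members past the unadjusted threshold in either direction. Nuclear receptors had 1 of 23 above, the orphan receptor Nr2c2 (0.73 ± 0.30), and 1 below, Ncoa2, a coactivator of these receptors (-1.28 ± 0.57), and both counts were 0 with the replicate block. Among cholesterol genes Ebp, an enzyme of sterol synthesis, lay below the sum (-1.82 ± 0.71). Ebp stood at 222, 76.7 and 41.4 CPM in Klf5 KD, so 1 library was far above the other 2. The departure of Ebp ran from -2.30 to -0.89 with 1 library left out and reached -0.53 among the other fits. Among imprinted genes Peg3 lay above (2.34 ± 1.09), at 1 of 15, and 0 with the replicate block. The departure of Peg3 ran from 1.29 to 3.16 with 1 library left out. Counts of 0 or 1 in these lists moved with single libraries, up to 4 above among FGF and ERK genes and up to 3 below in DNA replication. Both were reached without Klf5 KD replicate 3, where 596 of all genes lay above and 481 below.

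Large families of housekeeping genes lay mostly on one side of the sum, with few single genes past the threshold. Of 88 cytosolic ribosomal protein genes 85 lay below the sum, with a median of -0.30 and 0 past the unadjusted threshold in either direction. Of 46 proteasome genes 42 lay below, with a median of -0.48 and 1 past the threshold, Psmb6, a catalytic subunit (-0.74 ± 0.31). Of 81 nuclear genes of oxidative phosphorylation 72 lay below, with a median of -0.36, and 3 passed, Atp5d (-0.97 ± 0.36), Ndufa13 (-0.67 ± 0.30) and Ndufs7 (-0.90 ± 0.42). Of 13 mitochondrially encoded genes 13 lay above, with a median of 0.61, and 2 passed, mt-Atp6 (1.22 ± 0.49) and mt-Co3 (0.99 ± 0.44), of which 1 passed with the replicate block. Members of such a family vary together from library to library, so a count of members is not a count of independent observations. With library sizes from the ERCC spike-in counts the median of all genes itself moved to -0.62, and the signs above are relative to a median of all genes near 0. In that fit 98 of all 14830 genes lay above and 850 below at the unadjusted threshold. Among those below were 30 ribosomal protein, 18 oxidative phosphorylation and 5 proteasome genes. Above lay 0 mitochondrially encoded genes, and, apart from the numbered Zfp genes with 5, no list had more than 1 member above.

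With the mitochondrial share as a covariate the proteasome median, relative to all genes, went from -0.48 to 0.0063. The ribosomal protein genes went from -0.30 to -0.50 with 44 of 88 below the sum at the unadjusted threshold, and the oxidative phosphorylation genes from -0.36 to -0.48 with 25 of 81 below, in a fit that put 524 of all 14830 genes below. The mitochondrially encoded genes make up that share, so their median of -0.08 in that fit follows from its construction. Leaving out Klf5 KD replicate 1, which had the lowest share of all libraries at 4.41% and the greatest depth, brought the proteasome median to -0.20. Leaving out Nr5a2 KD replicate 1 brought the ribosomal protein median to -0.14 and that of oxidative phosphorylation to -0.21. Leaving out Nr5a2 KD replicate 3 brought that of the mitochondrially encoded genes to 0.32. These medians are relative to all genes. Up to 9 proteasome, 8 oxidative phosphorylation and 6 ribosomal protein genes lay below with 1 library left out, while 187 to 481 of all genes did. The 9 proteasome genes came from the fit without Klf5 KD replicate 3, where 481 of all genes lay below.

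**Figure D5:**
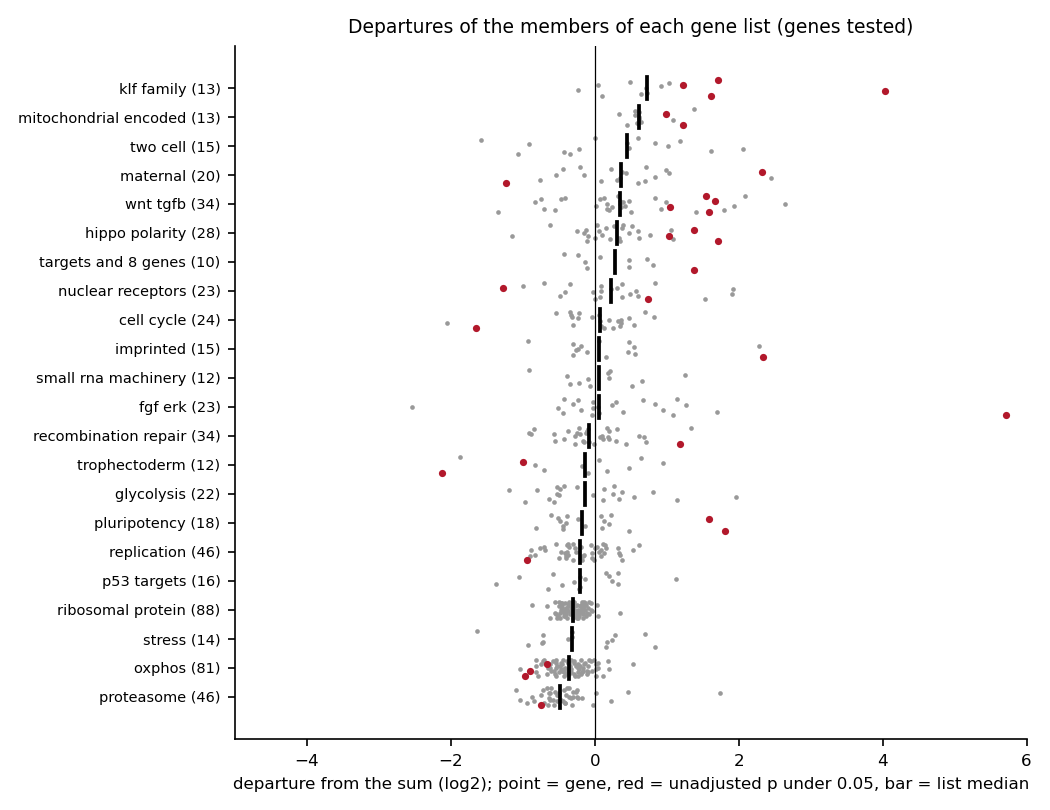
Departure from the sum (log2) of each tested gene in 22 lists of at least 10 tested genes, ordered by the list median (black bar), with the number tested in parentheses. Red points have an unadjusted p under 0.05. The Krueppel-like factors have the highest median (0.72) and the proteasome the lowest (-0.48). No list has a gene past the adjusted threshold by edgeR with the filter on low counts.

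DESeq2 called CT030661.1 (adjusted p 0.0135) and Olfr832 (adjusted p 0.0297) beside Dusp6. CT030661.1, a gene on chr17 known by a clone name, stood at 12.1 and 12.9 CPM in control, 6.96, 4.68 and 7.29 in Nr5a2 KD, 4.05, 5.2 and 2.64 in Klf5 KD, and 17.3, 13.5, 10.4 and 9.21 in dKD. All 6 single knockdown libraries were below both the control and the dKD libraries, which overlapped each other, and the departure was 2.64 ± 0.50. Olfr832, an olfactory receptor gene, was at 0.455 and 1.48 CPM in control, at 0 in all Nr5a2 KD libraries, at 0, 0.118 and 0 in Klf5 KD and at 0.945 to 1.52 CPM in dKD. With 3 counts over a group as the floor, which is 0.127 CPM in Nr5a2 KD and 0.114 CPM in Klf5 KD, both single knockdowns were under the limit that a count of 0 allows, and no departure is given. Without the filter edgeR also called Gm44014, Zfp947, Zfp367, Gpr183, Txndc16, Gm11934, Serpinb9b, Gm37583 and Zfp758 above the sum and Sergef, Ebp and Adm below. Gpr183 was at 0 in all libraries of both single knockdowns, and Serpinb9b at 0 in all Klf5 KD libraries. Gm11934 stood at 37.6 and 36.1 CPM in control, 13.9, 21.8 and 24 in Nr5a2 KD, 8.54, 16.2 and 24.7 in Klf5 KD and 28.1, 43.5, 36.4 and 22.6 in dKD, with both single knockdowns below the control in every library and the dKD overlapping it.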

How the data were processed

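RNA of pooled 8-cell embryos was amplified and sequenced without strand information and without molecular identifiers, so antisense and overlapping genes cannot be told apart. The authors deposited estimated counts per gene, made per the labels and methods with Trim Galore 0.6.2, STAR and featureCounts 2.0.1 on GRCm38; between 7.30 and 8.66% of the genes of a library hold values that are not whole. The values were rounded and fitted with edgeR 4.0.16 in R 4.3.3 (4 group means, TMM scaling, filterByExpr with a minimum count of 10 and total of 15, quasi-likelihood test, Benjamini-Hochberg adjustment over all 14830 genes). Calls needed a departure of at least 2-fold with an adjusted p under 0.05. CPM of single genes are TMM-scaled, summed marker CPM are per total counts, and depth sets their precision (6676683 to 12560926 counts a library). Scripts were tested on simulated data. Alternatives were DESeq2 1.42.0, limma-voom 3.58.1, other scalings and filters, a replicate block, a mitochondrial covariate, linear addition and each library left out.

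Genes named were those called by any of these tests, the 10 on each side with the smallest p among genes of at least 10 CPM with an official name and not Y-linked, the genes the study lists for the double knockdown, both targets with 8 further genes, and list members at an unadjusted p under 0.05. The members and lists were chosen with earlier results of these data known. Promoters came from a RefSeq table. A result of the cholesterol list is not reported here.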

Additional observations from a re-analysis of the deposited data

Results flagged for a closer look

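In 4 of 85 genes, 1 of the 4 dKD libraries stood apart from the other 3 by Dixon's test at 95%, which chance alone flags in about 1 in 20 groups. Atp5d was at 81.1 CPM in dKD replicate 2 against 107 to 110 CPM (106.8 to 109.7) in the others. Khdc3 was at 17.2 CPM in dKD replicate 1 against 6.97 to 8.51 CPM in the others. Tcf7l2 was at 21.3 CPM in dKD replicate 2 against 8.62 to 10.5 CPM in the others. Uty, a Y-linked gene, was at 5.31 CPM in dKD replicate 1 against 10.04 to 10.9 CPM in the others.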

How the results depend on the processing

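Of 85 genes followed, 74 kept the sign of the departure in every alternative fit that tested them (22 fits for 67 genes, 21 for 17 and 20 for 1), as did 20 of 20 genes at both edges. DESeq2 called 3 genes above the sum, edgeR without the filter 12 above and 3 below, and an unadjusted p with the 2-fold minimum 378 above and 243 below, while every other fit, each library left out included, called 0 and 0. At an unadjusted p under 0.05 the split of 428 above and 287 below became 440 and 358 with DESeq2, 507 and 295 with voom, 543 and 207 (72.4% above) with total counts, 557 and 524 (51.5%) with the mitochondrial covariate, 898 and 724 without the filter, 221 and 110 among 7861 genes of at least 50 counts and, with the ERCC counts, 98 and 850 (10.3%), where the median of all genes was -0.62 (signs of genes were read relative to it). With 1 library left out, 332 to 596 genes lay above and 187 to 481 below. Replicate numbers were not taken to pair the libraries: correlations of 15 same-numbered pairs ran from -0.203 to 0.254, and the 3 over 0.1 were the 3 pairs of Nr5a2 KD with dKD (0.13, 0.221 and 0.254); the replicate block called 0 and 0, with 421 above and 276 below.

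Signs reversed for Nr5a2 with voom (-0.0946) and the covariate (-0.16), Smad7 (-0.14 and -0.39) and Pold1 (-0.046 and -0.27). Rnaseh2c was 0.11 with total counts, 0.013 with ERCC, 0.039 with at least 50 counts, 0.047 with the replicate block and 0.0017 unrounded. Added in CPM, the departure was -1.32 CPM for Dusp6, -11.9 for Calm5, -10.7 for Gsc and -8.88 for Gng2. It was 1.83 for Prkcz, 2.2 for Gata1, 0.054 for Rad51c and 2.47 for Rnaseh2c, and 77 of 85 genes kept their sign. Some had a linear sum below 0 CPM, such as Klf5 (-204.5) and Zfp367 (-12.8). For these a positive sign was fixed in advance. With 1 library left out the departure ran from -0.18 to 0.32 for Nr5a2, -0.58 to 0.26 for Klf4, -0.52 to 0.95 for Tdgf1, -0.38 to 0.14 for Prkcz, -0.34 to 0.066 for Gata1, -1.24 to 1.13 for Smad7, -0.80 to 0.0046 for Ryk, -0.65 to 0.19 for Rad51c, -0.20 to 0.20 for Rnaseh2c, -0.073 to 0.27 for Pold1 and -1.73 to 0.36 for Ccng1. The causes were not tested. Depth limits scarce genes most.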

Other observations

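Zinc finger genes named Zfp and a number, a list formed after the values of single genes had been seen and therefore given with no test, had 285 members tested, of which 25 lay above the sum and 2 below at an unadjusted p under 0.05, where 2.89% of all genes lay above and 1.94% below. Their median departure was 0.31, 190 were positive, and 177 were lower in Klf5 KD than in control. With the mitochondrial share as a covariate the counts were 30 and 7, and over all 14830 genes 557 and 524. Scaling to the ERCC spike-ins turned the split, to 5 above and 12 below, where 98 of all genes lay above and 850 below. Many of these genes are near-identical copies of each other.

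The departure also differed with the summed length of a gene's exons. With the 14830 genes in 4 bins of increasing length, its median was -0.11, -0.07, 0.03 and 0.13, and 68, 108, 111 and 141 genes lay above the sum at an unadjusted p under 0.05, against 86, 81, 62 and 58 below. Over the 7351 genes of at least 10 CPM the correlation with the logarithm of length was 0.18 by Pearson and 0.24 by Spearman, a description across genes, which are not independent. The mitochondrial share differs between the groups that enter the sum, and its part in this relation was not tested.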
